A study of Mus musculus with 6 samples.

Results

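The cells described here are mesenchymal cells of whole mouse lungs at embryonic day 18.5, picked out by Dcn, Lum and Col14a1, genes commonly used to find adventitial fibroblasts. A cell was taken when its values, adjusted with SoupX for free RNA, summed to at least 4 over Dcn, Lum and Col14a1 and to at least 5 over Col1a1, Col1a2 and Col3a1. Wnt2, Epcam, Ptprc and the sum of Pecam1 and Cdh5 had to be 0, and Acta2 had to be under 10. The rule found 701 cells, called members below, among 16515 kept cells. They numbered 536 of 9067 in one library and 165 of 7448 in the other. The values of the genes just named chose the members and are given as a description.

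Both libraries were made from dissociated lungs of embryos that carry DsRed knocked into exon 1 of Cxcl12. One is labelled Cxcl12DsRed/DsRed, the homozygous null, and the other Cxcl12DsRed/+, the heterozygous control, so that every embryo carried the reporter allele and none was wild type. Each genotype is represented by 1 library whose cells are not assigned to embryos, and the spread between animals could not be measured. The other 4 libraries of the series were made from sorted cells and were not used here. Levels are in CPM, the UMIs of a gene for every 1000000 UMIs summed over a group of cells. Intervals are exact 95% intervals that cover counting error only. The tags come from the 3′ end of transcripts and levels are not scaled by gene length. Where a pair of values is given without further words, the library labelled null comes first.

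Cxcl12, the targeted gene, went against the genotype labels. Over all kept cells it stood at 192 CPM in the library labelled null and 1.27 CPM in the library labelled control. In endothelial cells, taken as cells with a Pecam1 and Cdh5 sum of at least 2 and a collagen sum under 5, the levels were 569.6 and 5.54 CPM. The names of the deposited whole-lung tables also give the genotypes the other way round. DsRed sits in exon 1 while the tags come from the far end of the transcript, and whether the allele with DsRed still gives such tags was not tested. A heterozygote keeps 1 intact copy, and the library labelled control held 96 Cxcl12 UMIs in all kept cells against 19230 in the library labelled null. The libraries are named by their labels throughout, and no direction below is read as an effect of the allele. Endothelial cells made up 29.3% (28.3 to 30.2%) and 22.7% (21.8 to 23.7%) of kept cells, and Wnt2+ cells 6.02% (5.54 to 6.53%) and 9.33% (8.68 to 10.0%).

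Adventitial fibroblasts lie in the connective tissue cuffs around large vessels and airways, where they lay down collagens, proteoglycans and elastic fibres. Decorin (Dcn) and lumican (Lum) are small leucine-rich proteoglycans that bind collagen fibrils, and Col14a1 encodes a collagen associated with fibrils. Alveolar fibroblasts, marked in the fetal lung by Wnt2 and Tcf21, are the neighbouring mesenchymal cells of the distal lung. CXCL12 is a chemokine that acts through CXCR4 and is scavenged by ACKR3. IGFBP2 is a secreted protein that binds insulin-like growth factors.

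Of the selecting genes, Col14a1 was shared by nearly all members and Dcn and Lum were not. Col14a1 (chr15:55307750-55520803, GRCm38) had a UMI in 96.6% and 96.4% of members. Dcn (chr10:97479609-97518143) had a UMI in 301 of 536 members and 63 of 165, with medians of 1 and 0 and maxima of 122 and 106 UMIs a cell. Lum (chr10:97565128-97572703) had a UMI in 111 and 25 members. Many members were thus admitted by Col14a1 without either proteoglycan. Summed over members, Dcn stood at 836 and 698 CPM, Lum at 128 and 83.5 CPM and Col14a1 at 771 and 833 CPM. Dcn was also among the genes that the authors gave SoupX to estimate free RNA, so the adjustment and the rule share a gene.

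The members were therefore described as 2 kinds, a split made after these values were seen. Members with an adjusted Dcn and Lum sum of at least 1, called Dcn/Lum-positive, numbered 257 (48.0%, 43.7 to 52.3%) and 57 (34.6%, 27.3 to 42.3%). The other 279 and 108 were called Col14a1-only. The name rests on adjusted values, since in UMI counts 48 and 8 of these held Dcn and 2 and 1 held Lum. Tcf21, a transcription factor of lung fibroblasts, stood at 1793 and 1917 CPM in Col14a1-only members, at 1116 and 881 CPM in Dcn/Lum-positive members and at 3132 and 3017 CPM in Wnt2+ cells. Limch1, an alveolar fibroblast gene, stood at 591 and 683 CPM, 307 and 254 CPM and 1205 and 1235 CPM in the same order. Of the 7 alveolar genes compared, Col14a1-only members lay between the others in both libraries for 5, and not for Npnt and Inmt, where they lay between in the library labelled null alone. Without the Dcn/Lum-positive members that bore cartilage or mesothelial markers the count was 6, with Inmt the exception. The share of all genes in that order was not computed, so nothing is read from these counts. Mfap5, an adventitial marker, stood at 465 and 214 CPM in Col14a1-only members and at 6.11 and 3.49 CPM in Wnt2+ cells. How many adventitial markers lay above Wnt2+ cells was not counted for this kind alone. Since many members had little Dcn or Lum, the name adventitial fibroblast is not used for the members. The cells are called by their rule and selecting genes.

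**Figure D1:**
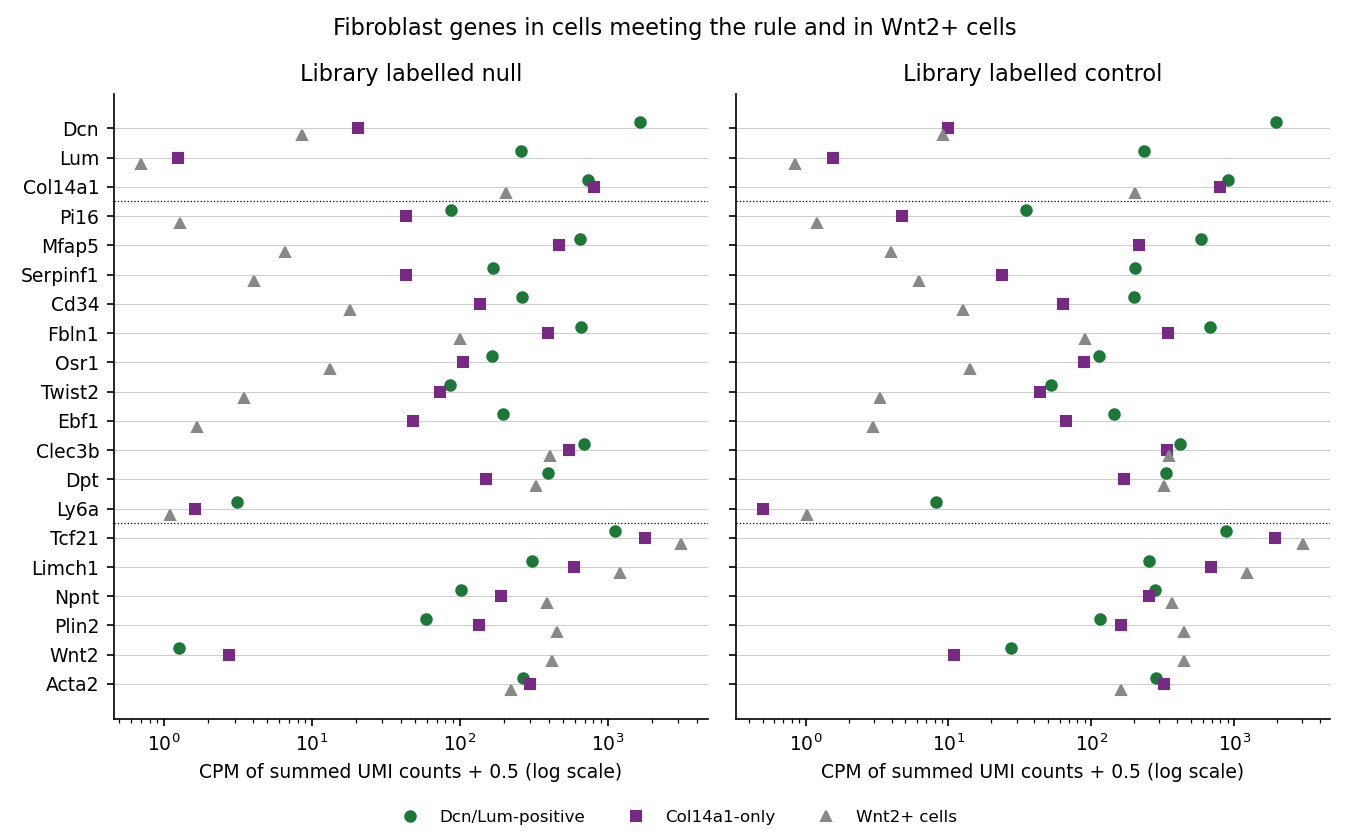
CPM (plus 0.5, log scale) of 20 genes in Dcn/Lum-positive members (green circles), Col14a1-only members (purple squares) and Wnt2+ cells (grey triangles), in the library labelled null (left) and labelled control (right), with no error shown. Dotted lines set off the selecting genes at the top and the alveolar and contractile genes at the bottom. Both kinds of member lie to the right of Wnt2+ cells for Mfap5, Cd34, Osr1 and Twist2, and to the left of them for Tcf21, Limch1 and Plin2.

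The members were compared with Wnt2+ cells, which met the same collagen, lineage and Acta2 limits but had Wnt2 of at least 1 and a Dcn, Lum and Col14a1 sum under 4 (546 and 695 cells). Cells with Wnt2 above 0 and a sum of at least 4 were in neither group, nor were those with Wnt2 between 0 and 1. Before the Wnt2 limit 786 and 331 cells met the rest of the rule, and 536 and 165 of them were members. The ratios thus leave out cells between the groups. The rule separates members from Wnt2+ cells, so the comparison describes the profile and nothing is read from its counts. Outside the genes of the rule, 208 of 3257 genes reaching 50 CPM were at least 2-fold higher in members in both libraries (6.39%), and 91 were at least 2-fold lower (2.79%). Some of these counts rested on few cells, since 8 and 2 members bore cartilage and 5 and 9 mesothelial markers. Without those members, called marked below, 179 of 3230 genes were higher (5.54%) and 79 lower (2.45%), and for the lists below the counts are given both ways where calls changed.

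Of 20 adventitial markers, 15 outside the rule were compared, of which 10 were at least 2-fold higher in members in both libraries and 0 lower. Without the marked members 9 of 14 were higher, and Tnxb did not reach the minimum level. Of all genes compared 6.39% were higher and 2.79% lower, or 5.54% and 2.45% without the marked members. Mfap5, a microfibril protein, stood at 559 and 345 CPM in members against 6.11 and 3.49 CPM in Wnt2+ cells. Serpinf1, which encodes the secreted factor PEDF, stood at 105 and 86.2 CPM against 3.55 and 5.76 CPM. The surface antigen Cd34 stood at 199 and 111 CPM against 17.7 and 12.1 CPM. These genes were far apart in both libraries. The transcription factors Twist2 and Osr1 had log2 ratios of 4.53 and 3.82 and of 3.35 and 2.79. Fbln1, which encodes fibulin 1, stood at 528 and 461 CPM against 99.5 and 90.1 CPM. The markers that did not pass 2-fold in both libraries were Clec3b, Dpt, Gsn, Dpep1 and Igfbp4, and Dpt was on the lower side, with log2 ratios of -0.28 and -0.52. Ly6a, a marker of adult adventitial fibroblasts, was low throughout, at 1.88 and 2.71 CPM in members.

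Of 8 alveolar fibroblast genes, 7 were compared, 4 were at least 2-fold lower in members in both libraries and 0 higher. Of all genes compared 2.79% were lower and 6.39% higher. Plin2, which coats lipid droplets, stood at 96.6 and 145 CPM in members against 451 and 442 CPM in Wnt2+ cells. Inmt, which encodes a methyltransferase, stood at 26.3 and 63.1 CPM against 225 and 186 CPM. Limch1 and Meox2 had log2 ratios of -1.42 and -1.22 and of -1.66 and -1.18. Tcf21, at log2 ratios of -1.10 and -0.96, passed 2-fold in the library labelled null alone.

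Ranked by the smaller of the ratios in both libraries, the 10 genes furthest above Wnt2+ cells were Col2a1, Col9a3, Cytl1, Igfbp2, Fbln2, Igfbp6, Mfap5, Acan, 1500015O10Rik and Col9a1. Col2a1, Col9a1, Col9a3, Acan and Cytl1 are genes of cartilage. Of the Col2a1 UMIs, 2787 of 2797 and 585 of 589 came from the 8 and 2 members that bore cartilage markers. Without the marked members none of these 5 was above 4.44 CPM in either library, and in a ranking added after the data were seen the 10 furthest above were Igfbp2, Fbln2, Mfap5, Prss35, Ntrk2, Sostdc1, Agtr2, Cpz, Igfbp5 and Postn. Igfbp2 had log2 ratios of 8.29 and 6.82, and Fbln2, which encodes fibulin 2, of 6.79 and 7.04. The 10 genes furthest below Wnt2+ cells were Nppc, Slc7a10, Shisa2, Bmper, Rgs10, Gyg, Col25a1, Mrap, Ces1d and Tchh. Gyg, which encodes glycogenin, was the most abundant of these at 316 and 508 CPM in members against 2031 and 1932 CPM in Wnt2+ cells. Nppc, which encodes C-type natriuretic peptide, had 2 and 8 UMIs in all members.

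**Figure D2:**
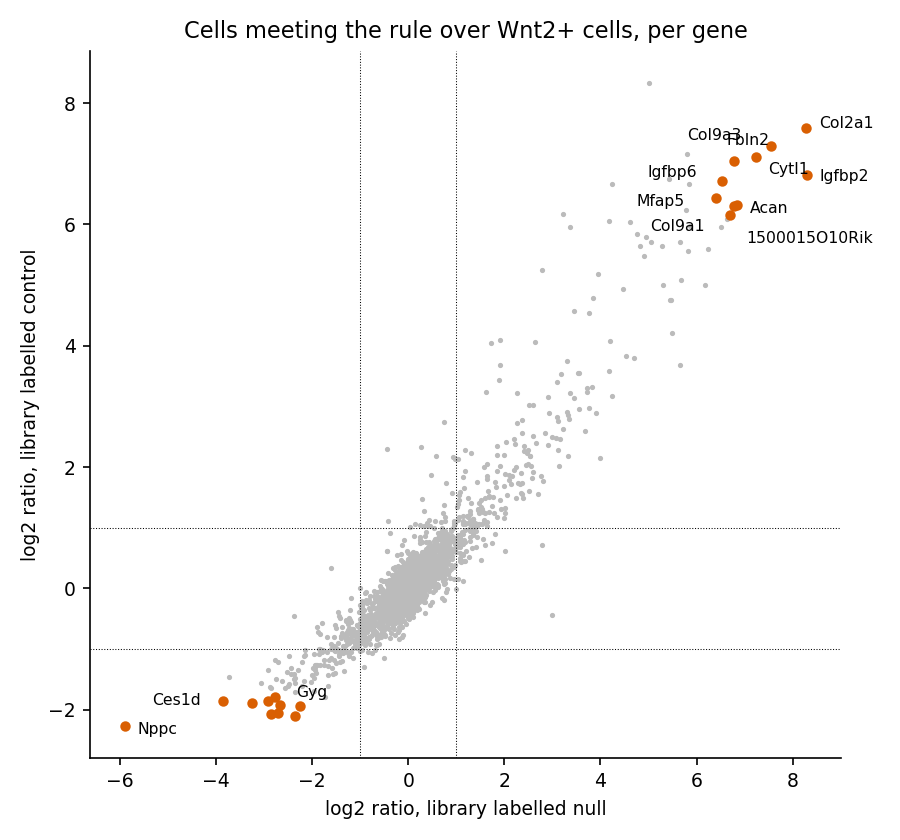
Log2 ratio of members over Wnt2+ cells for each gene reaching 50 CPM outside the rule, in the library labelled null (horizontal) and labelled control (vertical). Grey points are genes, orange points the 10 highest and 10 lowest by the smaller ratio, and dotted lines mark 2-fold. Igfbp2 lies at 8.29 and 6.82, and Nppc at -5.91 and -2.26.

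The 15 highest genes of the members, outside mitochondrial, ribosomal protein and haemoglobin genes, were Malat1, Tpt1, Mgp, Eln, Eef1a1, Sparc, Col1a1, Mfap4, Col1a2, Tmsb4x, Col3a1, Fau, Actb, Meg3 and Gsn. Col1a1, Col1a2 and Col3a1 belong to the rule. Matrix Gla protein (Mgp), an inhibitor of calcification, stood at 7883 and 7217 CPM in members against 4231 and 5536 CPM in Wnt2+ cells. Elastin (Eln) stood at 7236 and 6742 CPM in members, with 9834 and 8487 CPM in the Col14a1-only kind and 4607 and 3540 CPM in the Dcn/Lum-positive kind. Mfap4, a microfibril-associated protein, stood at 4460 and 5058 CPM against 14150 and 12210 CPM. The imprinted transcript Meg3 stood at 3518 and 2202 CPM against 236 and 295 CPM. Wnt2+ cells held Eln at 4983 and 3909 CPM, and the Dcn/Lum-positive kind without the marked members at 4890 and 4289 CPM. Against Wnt2+ cells Meg3 was past 2-fold higher in both libraries and Mfap4 past 2-fold lower, and so was Sparc on the higher side, with log2 ratios of 1.77 and 1.51, while Mgp (0.90 and 0.38) and Eln (0.54 and 0.79) were higher by less.

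Of 19 elastic fibre genes compared, 9 were at least 2-fold higher in members in both libraries and 1, Mfap4, lower. Beside this and the lists that follow, 6.39% of all genes compared were higher and 2.79% lower, or 5.54% and 2.45% without the marked members. Without the marked members Efemp1 did not reach the minimum level and 8 of 18 were higher. Ltbp4, which binds latent TGF-beta and takes part in elastic fibre assembly, stood at 659.7 and 645 CPM against 227 and 259.9 CPM. Ltbp2 stood at 202 and 187 CPM against 34.3 and 40.5 CPM. Of 13 collagen genes outside the rule, 5 were higher and 0 lower, or 3 of 12 higher without the marked members. Col11a1 then did not reach the minimum level and Col27a1 was not past 2-fold in both libraries. Col5a1, a chain of a fibril-forming collagen, stood at 484 and 381 CPM against 109.5 and 116 CPM, while the basement membrane chain Col4a1 was closer, at 799 and 865 CPM against 605 and 699 CPM. Of 3 small leucine-rich proteoglycans compared outside the rule, 2 were higher, Ogn (1203 and 881 CPM against 517 and 385 CPM) and Aspn (434 and 235 CPM against 56.7 and 31.4 CPM), and Bgn was not. Of 19 genes of matrix turnover and adhesion, 9 were higher and 0 lower, and 9 of 18 were higher without the marked members. Pcolce, which helps to process procollagen, stood at 592 and 399.6 CPM against 111 and 82.4 CPM. Adamts5, a protease of proteoglycans, stood at 113 and 98.4 CPM against 5.52 and 10.5 CPM. Fn1, the fibronectin gene, was on the lower side, with log2 ratios of -1.15 and -0.98.

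Transcription factors and signals differed in both directions. Of 18 transcription factors compared, 6 were at least 2-fold higher in members in both libraries, namely Twist2, Osr1, Prrx1, Ebf1, Gata6 and Klf4, and 1, Meox2, lower. Of all genes compared 6.39% were higher and 2.79% lower. Ebf1 stood at 121 and 93.6 CPM against 1.18 and 2.45 CPM. Among signals to vessels and axons, 2 of 8 genes were higher and 2 lower. Pleiotrophin (Ptn), a heparin-binding growth factor, stood at 916 and 738 CPM against 27.0 and 13.6 CPM, and Sema3d, a guidance ligand, at 76.2 and 52.9 CPM against 8.28 and 12.8 CPM. The lower genes were Vegfa, at 41.1 and 62.4 CPM against 126 and 139 CPM, and the guidance ligand Slit2, at 56.8 and 149 CPM against 331 and 388 CPM.

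Of 9 TGF-beta and BMP genes, 3 were higher, Fstl1, Nbl1 and Gdf10, and 2 lower, Bmp5 and Bmper, where 6.39% and 2.79% of all genes compared were higher and lower. Fstl1, which encodes a secreted glycoprotein, stood at 936 and 701 CPM against 209 and 194 CPM. Of 11 Wnt, hedgehog and FGF genes, 3 were higher, Sfrp1, Sfrp2 and Wif1, which all encode secreted proteins that bind Wnt ligands, and 2 lower, Fgf7 and Fgfr4. Without the marked members Sfrp2 stood at 17.8 and 38.5 CPM, under the minimum level, and 2 of 10 genes were higher and 1 lower. Of 6 chemokine and complement genes, 4 were higher, Ccl11, Cxcl14, C3 and C1ra. Without the marked members C3 stood at 16.1 and 9.63 CPM, under the minimum level, and 2 of 4 were higher, Ccl11 and Cxcl14. Cxcl14 stood at 189.6 and 126 CPM against 53.4 and 39.5 CPM.

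The Dcn/Lum-positive kind was also set beside the Col14a1-only kind. Members with cartilage or mesothelial markers were left out of the Dcn/Lum-positive kind for this description, which left 244 and 46 cells. Of 3396 genes, 62 were at least 2-fold higher in the Dcn/Lum-positive kind in both libraries (1.83%) and 36 lower (1.06%). The split uses genes of the rule, and nothing is read from these counts. Itih5, of the inter-alpha-trypsin inhibitor heavy chain family, stood at 98.8 and 202 CPM in the Dcn/Lum-positive kind and 9.33 and 12.6 CPM in the Col14a1-only kind. Postn, which encodes periostin, stood at 348 and 741 CPM in the Dcn/Lum-positive kind and 44.8 and 82.8 CPM in the Col14a1-only kind. The transcription factor Gata6 stood at 112 and 141 CPM in the Dcn/Lum-positive kind and 34.3 and 28.3 CPM in the Col14a1-only kind. In the other direction, Hsd11b1, which encodes an enzyme that activates glucocorticoids, stood at 57.5 and 65.6 CPM in the Dcn/Lum-positive kind and 223 and 301 CPM in the Col14a1-only kind.

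The 10 genes that varied most among members in both libraries were Eln, Mfap4, Col3a1, Col1a1, Mgp, Apoe, Dlk1, Col1a2, Dcn and Malat1, by the variance of Pearson residuals. Eln had variances of 33.7 and 28.4 and Malat1, the last of these, of 14.7 and 18.5, where the median gene had 1.08 and 1.08. Dcn and the collagens belong to the rule, so their variance depends on what the rule admits. Over members thinned to 4000 UMIs (523 and 157 cells), Dcn had rank correlations (Spearman) of 0.46 and 0.58 with Lum, 0.43 and 0.40 with the imprinted gene Dlk1 and -0.28 and -0.40 with Tcf21. Igfbp2 had 0.44 and 0.25 with Eln and -0.20 and -0.01 with Dcn. The cells of each coefficient share 1 library with its depth and free RNA, and the coefficients are a description.

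The 8 mesothelial markers, none of which was at 0, summed to 129 and 633 CPM in members and 69.0 and 88.2 CPM in Wnt2+ cells. All 83 and 320 Upk3b UMIs came from 5 and 9 members with at least 3 UMIs of mesothelial markers, which were 0.933% (0.304 to 2.16%) and 5.46% (2.52 to 10.1%) of members. Mesothelial markers were thus higher in the library labelled control. The 6 cartilage markers summed to 786 and 594 CPM. The 8 pericyte markers summed to 493 and 823 CPM in members and 141 and 171 CPM in Wnt2+ cells. Of 6 compared, 4 were at least 2-fold higher in members in both libraries, Pdgfrb (119.7 and 159 CPM against 13.4 and 23.1 CPM), Notch3, Cox4i2 and Postn, with the same count without the marked members. Of all genes compared 6.39% were higher. Between the libraries 2 of 5, Cox4i2 and Gucy1a1, were at least 2-fold lower in the library labelled null, where 1.43% of all genes compared were. Members with at least 5 UMIs of Higd1b and Cox4i2 numbered 3 and 7, and their part in these values was not tested. Epithelial markers (8 genes) summed to 68.1 and 202 CPM, with 55 Scgb1a1 and 17 Sftpb UMIs at most in 1 member of the library labelled control and 2 and 1 in the library labelled null. Endothelial markers (7 genes) summed to 108 and 64.5 CPM and immune markers (7 genes, with Ptprc at 0 in the library labelled control) to 81.6 and 46.8 CPM. The 7 smooth muscle markers, of which the rule limits Acta2, summed to 486 and 572 CPM. Of 4 myofibroblast markers compared, 0 were at least 2-fold higher in members than in Wnt2+ cells in both libraries and 0 lower, or 1 lower without the marked members. Of 6 erythroid markers, 2 and 3 were at 0 and the sums were 20.5 and 8.14 CPM. SoupX had set Wnt2 to 0 in 5 and 14 members that held UMIs of it.

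Members made up 5.91% (5.44 to 6.42%) of kept cells in the library labelled null and 2.22% (1.89 to 2.58%) in the library labelled control, and the Dcn/Lum-positive kind 2.83% (2.503 to 3.20%) and 0.765% (0.580 to 0.990%). Before the Wnt2 limit, 786 of 9067 and 331 of 7448 kept cells met the rest of the rule. The rule reads adjusted values, and the adjustment differed between the libraries. SoupX removed 18.05% of UMIs in the library labelled null and 39.74% in the library labelled control, which left members a median of 7968 and 4927 from 9734 and 8135 UMIs. It also lowered the mitochondrial share, of which a kept cell had to hold at least 0.5%. Under that limit fell 136 and 819 cells, of which 10 and 87 otherwise met the rule. In the library labelled control these 87 cells had a median mitochondrial share of 2.54% in UMI counts and 0.192% after adjustment. With no lower limit the shares of members were 5.93% and 3.05%, and of the Dcn/Lum-positive kind 2.84% (2.51 to 3.20%) and 1.15% (0.931 to 1.40%), while members made up 6.36% and 3.78% with the whole rule applied to UMI counts. The share was higher in the library labelled null each time, and by less. Which cells survive dissociation was not tested.

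Just inside, with a Dcn, Lum and Col14a1 sum of 4 to 5, lay 96 and 39 members with Dcn at 65.6 and 53.1 CPM and Col14a1 at 507 and 498 CPM. Just outside, at 3 to 4, lay 117 and 64 cells with Dcn at 47.4 and 49.9 CPM and Col14a1 at 429 and 458 CPM. Igfbp2 stood at 380.3 and 101 CPM just inside and 575 and 65.2 CPM just outside.

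Cxcl12 (chr6:117168535-117181367) was measured in members of the library labelled null at 83.9 CPM (76.3 to 92.0 CPM), from 447 UMIs in 204 of 536 members with at most 11 in a cell. The Dcn/Lum-positive kind stood at 127 CPM (114 to 141 CPM) and the Col14a1-only kind at 41.4 CPM (34.1 to 49.9 CPM). Wnt2+ cells stood at 10.1 CPM (7.48 to 13.2 CPM). The counting intervals of both kinds and of Wnt2+ cells do not overlap, but they leave out the spread between cells and between animals. The Dcn/Lum-positive kind was the highest of these groups. Members were 8.35-fold higher than Wnt2+ cells (6.24 to 11.4). The log2 ratio was 4.75 with adjusted levels and 2.18 with the rule applied to UMI counts, both outside the counting interval. After adjustment for free RNA the Dcn/Lum-positive kind stood at 116, the Col14a1-only kind at 23.5 and Wnt2+ cells at 2.10 adjusted counts for every 1000000. Acta2-high cells, which met the collagen and lineage limits with Acta2 of at least 10, stood at 57.8 CPM (53.9 to 62.0 CPM), and endothelial cells at 569.6 CPM (561 to 579 CPM).

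For the library labelled control, 0 Cxcl12 UMIs were counted among the 1473816 UMIs of the members. The limit that a count of 0 allows, 3 counts over the group, is 2.04 CPM, and the level in members of the library labelled null was 41.2-fold that limit. The exact 95% interval of the log2 ratio, which also covers the counting error of the library labelled null, had a lower bound of 5.06, a smaller fold. Wnt2+ and Acta2-high cells of the library labelled control held 1 and 6 Cxcl12 UMIs in all. After thinning to 4000 UMIs a cell, 23.5% (20.0 to 27.4%) of 523 members of the library labelled null held a Cxcl12 UMI, against 3.32% (1.98 to 5.19%) of 543 Wnt2+ cells. Unthinned, the shares were 38.1% and 7.33%, at medians of 9734 and 9081 UMIs. For the library labelled control, 0 of 157 thinned members held one, which allows a share of up to 1.91% by the same 3 counts and 2.32% by the Clopper-Pearson interval. These limits are on cells with a UMI, not on cells that express the gene. Other genes of the axis were low in members. Cxcr4, the receptor, stood at 3.19 and 1.36 CPM, Ackr3 at 26.5 and 14.9 CPM and Dpp4, a protease that cleaves CXCL12, at 1.501 and 2.04 CPM, with 0 and 0 UMIs left without the marked members.

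**Figure D3:**
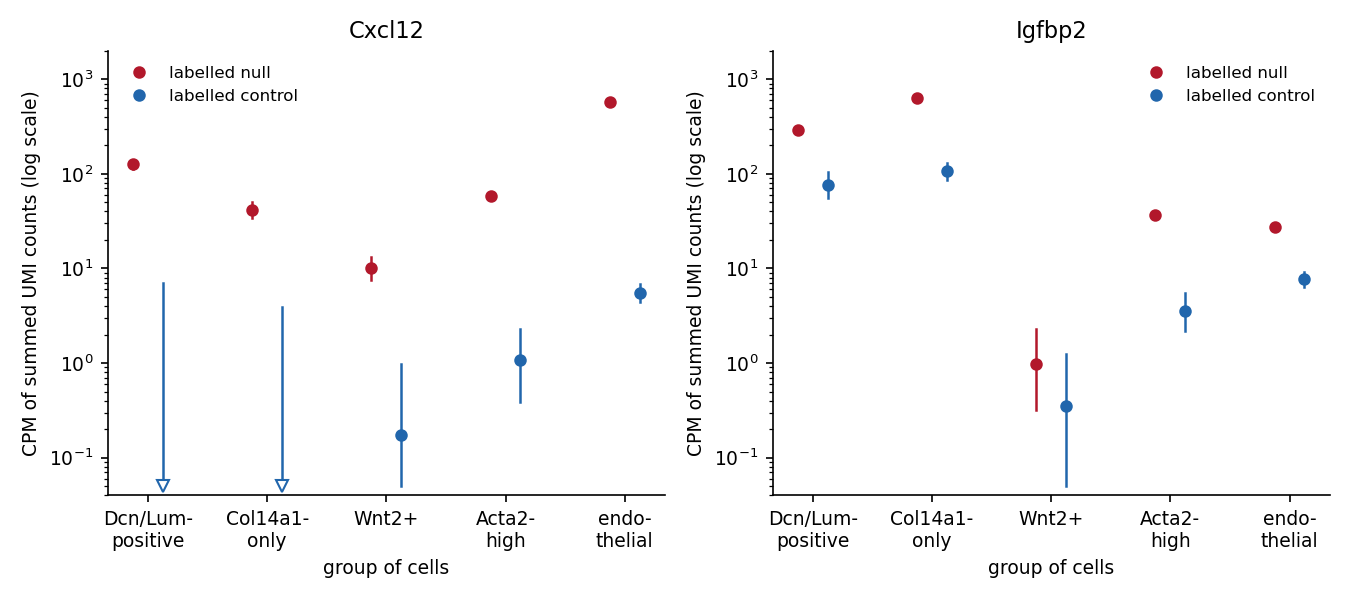
Cxcl12 (left) and Igfbp2 (right) in 5 groups of cells, as CPM on a log scale with exact 95% Poisson intervals, in the library labelled null (red) and labelled control (blue). Open triangles mark a count of 0, with a line up to the upper bound, and intervals that reach below the axis are cut there. Cxcl12 lies higher in the library labelled null in each group, and Igfbp2 lies higher in both kinds of member (76.9 to 636 CPM) than in the other groups (0.349 to 36.3 CPM).

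Igfbp2 (chr1:72824503-72852474) was among the genes furthest above Wnt2+ cells in both libraries. It stood at 464 CPM (446 to 483 CPM) in members of the library labelled null, from 2474 UMIs, and at 0.985 CPM (5 UMIs) in Wnt2+ cells, a 471-fold ratio (202 to 1452). For the library labelled control the levels were 95.7 CPM (80.5 to 113 CPM), from 141 UMIs, and 0.349 CPM (2 UMIs), a 274-fold ratio (74.4 to 2284). These folds are of the CPM themselves, and the log2 ratios of 8.29 and 6.82, which add 0.5 CPM to each level, stand for smaller folds. Acta2-high cells stood at 36.3 and 3.55 CPM and endothelial cells at 27.7 and 7.74 CPM. Of these groups the members were highest in each library. All kept cells held 6979 and 1029 Igfbp2 UMIs, so most lay outside the members, and other cell types were not set beside them.

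A minority of members carried this Igfbp2. In the library labelled null 387 of 536 members held none, and 109 members with at least 3 UMIs (20.3%, 17.0 to 24.0%) held 2421 of the 2474 UMIs. The 27 members with 30 UMIs or more held 57.4% of them, up to 121 in a cell. In the library labelled control 11 of 165 members had at least 3 UMIs (6.67%, 3.38 to 11.6%), up to 17 in a cell, and held 123 of the 141 UMIs. Most of the Igfbp2 thus sat in few cells of either library. Thinned to 4000 UMIs, 23.1% (19.6 to 27.0%) and 12.1% (7.45 to 18.3%) of members held a UMI, from 27.8% and 15.8% before thinning. Of thinned Wnt2+ cells, 3 of 543 and 0 of 689 did, the latter allowing a share of up to 0.435% by 3 counts and 0.534% by the Clopper-Pearson interval.

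Igfbp2 did not follow Dcn and Lum. The Col14a1-only kind stood at 636 CPM (606 to 667 CPM) and the Dcn/Lum-positive kind at 291 CPM (270.4 to 312 CPM) in the library labelled null. For the library labelled control the levels were 106 CPM (86.3 to 129 CPM) and 76.9 CPM (55.0 to 105 CPM), with intervals that overlap. Members with an adjusted Dcn and Lum sum of at least 4 (175 and 46 cells) had lower levels of 105 and 23.1 CPM. Cells just outside the rule also held Igfbp2, as given above.

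**Figure D4:**
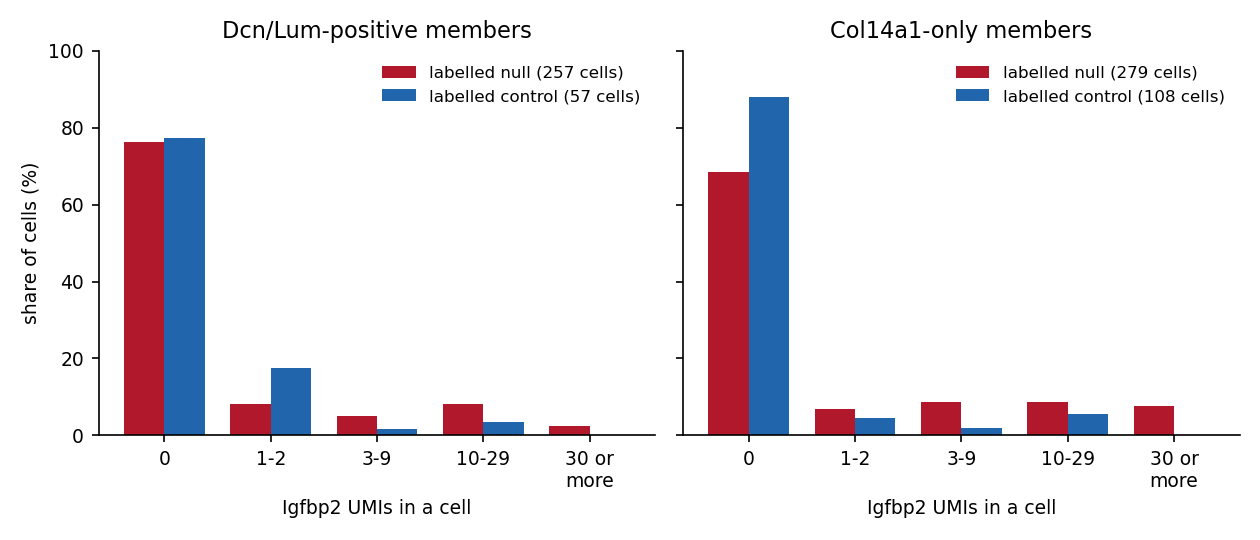
Share of members (%) by their number of Igfbp2 UMIs, for Dcn/Lum-positive (left) and Col14a1-only members (right), in the library labelled null (red) and labelled control (blue). Cells with 0 UMIs are the commonest in each panel, and cells with 30 or more are seen in the library labelled null alone (6 and 21 cells).

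Between the libraries Igfbp2 was higher in members of the library labelled null by a log2 ratio of 2.27 (2.03 to 2.53). It was 1.91 in the Dcn/Lum-positive and 2.58 in the Col14a1-only kind, and outside the members it was 3.19 in Acta2-high and 1.77 in endothelial cells. In Wnt2+ cells it was 0.806, from 5 and 2 UMIs. Over all kept cells, members included, it was 2.31. The 87 cells of the library labelled control under the mitochondrial limit had Igfbp2 at 275 CPM, and 17 of them held at least 3 UMIs. With no lower limit the log2 ratio was 1.48, and with the rule applied to UMI counts 1.61. Genotype, library and embryos cannot be told apart.

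The Igfbp2-bearing Col14a1-only members shared other genes. Those with at least 3 Igfbp2 UMIs (69 and 8 cells) were set beside those with 0 (191 and 95 cells), groups chosen on a readout after the data had been seen and given without a test. The bearing cells were deeper, with medians of 10374 and 11115.5 against 8190 and 7687 UMIs. Lgr5, a receptor of R-spondins, stood at 86.4 against 0 CPM in the library labelled null and 82.6 against 11.1 CPM in the library labelled control. Notum, which encodes a secreted Wnt inhibitor, stood at 72.2 against 5.89 CPM in the library labelled null and 227 against 16.0 CPM in the library labelled control. The transcription factor Osr2 stood at 187 against 10.6 CPM in the library labelled null and 361 against 16.0 CPM in the library labelled control. These genes were high in the bearing cells of both libraries. The laminin chain Lamc3 stood at 191 against 8.83 CPM in the library labelled null and 279 against 27.0 CPM in the library labelled control. Htra1, a secreted protease, had log2 ratios of 2.44 and 3.06, Fbln2 of 3.25 and 3.29, Wif1 of 3.08 and 2.95 and Igfbp3 of 2.37 and 3.37.

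The same cells were low in other genes. Inmt stood at 0 against 61.8 CPM in the library labelled null and 0 against 73.7 CPM in the library labelled control. Rgs5, a regulator of G protein signalling abundant in pericytes, stood at 0 against 87.7 CPM in the library labelled null and 0 against 79.8 CPM in the library labelled control. Npnt, which encodes the matrix protein nephronectin, stood at 59.3 against 264 CPM in the library labelled null and 61.9 against 284 CPM in the library labelled control. Of 7 alveolar genes outside the rule, 7 were lower in the bearing cells of both libraries and 5 past 2-fold, Npnt, Limch1 (log2 ratios -1.70 and -1.73), Meox2, Plin2 and Inmt. The share over all genes was not computed for this comparison, so nothing is read from the count, and the library labelled control had 8 bearing cells. Tcf21 had log2 ratios of -0.62 and -0.91 and remained at 1332 and 1063 CPM. Cxcl12 stood at 21.9 CPM (12.8 to 35.1 CPM) in the bearing cells and 50.03 CPM (39.96 to 61.9 CPM) in the Igfbp2-free cells of the library labelled null, or at 3.88 and 33.8 adjusted counts for every 1000000 after adjustment for free RNA.

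Of 11 genes of the IGF axis compared, 6 were at least 2-fold higher in members than in Wnt2+ cells in both libraries, namely Igf1, Igfbp2, Igfbp5, Igfbp6, Igfbp7 and H19, and 0 lower, where 6.39% and 2.79% of all genes compared were higher and lower. Igfbp2 was chosen for description with its level known. The ligand Igf1 stood at 268 and 207 CPM in members against 47.7 and 49.6 CPM in Wnt2+ cells. The binding protein Igfbp5 stood at 414 and 718 CPM against 6.90 and 4.54 CPM, and Igfbp6 at 192 and 383 CPM against 1.58 and 3.14 CPM. Without the marked members Igfbp5 stood at 387 and 395 CPM and Igfbp6 at 182 and 143 CPM. Igfbp2, Igfbp5 and Igfbp6 were the genes of the axis furthest from Wnt2+ cells. Igfbp7 was more abundant, at 1694 and 1486 CPM against 331 and 396 CPM, and Igfbp4 stood at 1170 and 958 CPM against 463 and 520.4 CPM. The receptors Igf1r and Igf2r had log2 ratios of 0.70 and 0.34 and of -0.49 and -0.33. Between the libraries Igfbp5 and Igfbp6 lay on the other side from Igfbp2, with log2 ratios of -0.79 and -0.99, and of -0.03 and 0.35 without members bearing cartilage or mesothelial markers.

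The libraries were compared over the whole profile of the members. Of 3017 genes reaching 50 CPM, 9 were at least 2-fold higher in members of the library labelled null (0.298%) and 43 lower (1.43%), with a median absolute log2 ratio of 0.166. With adjusted values of the same cells the counts were 88 higher and 87 lower, and without members bearing cartilage or mesothelial markers 13 (0.433%) and 31 (1.03%). With the rule applied to UMI counts they were 5 and 14, and with no lower mitochondrial limit 4 and 20. In the Dcn/Lum-positive kind alone 16 of 3100 were higher and 104 lower, or 19 and 65 of 3096 without the marked members. In the Col14a1-only kind 15 of 3023 were higher and 40 lower. The number of genes past 2-fold thus moved with the cells taken, and their depth differed. For the library labelled control, members held 1473816 UMIs and the Dcn/Lum-positive kind 520019. The part of counting error in these counts was not tested.

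The 10 genes ranked toward the library labelled null were Cxcl12, Gm13305, Igfbp2, Pi16, P4ha2, Higd1a, Nfil3, Dnajb1, Scara5 and S100a16. Gm13305 (chr4:42158842-42168603), a predicted gene, held 478 UMIs against 1, a log2 ratio of 6.26 (4.56 to 12.35), with 5.22 in Wnt2+ and 3.93 in endothelial cells. Its counts are uncertain, since reads may be shared with near-identical copies. Pi16 (chr17:29317680-29330593), a marker of adventitial fibroblasts, held 345 UMIs in 121 members against 22 UMIs in 9, a log2 ratio of 2.08 (1.49 to 2.81). That ratio was not recomputed with no lower mitochondrial limit or with the rule on UMI counts. Of the 87 cells of the library labelled control under that limit, 38 were Dcn/Lum-positive. The log2 ratio was 1.32 in the Dcn/Lum-positive and 3.20 in the Col14a1-only kind, and outside the members 2.02 in Acta2-high and 1.41 in endothelial cells. In Wnt2+ cells it was 0.104, from 4 UMIs in each library. Thinned to 4000 UMIs, 15.5% (12.5 to 18.9%) and 3.19% (1.04 to 7.28%) of members held a Pi16 UMI, from 22.6% and 5.46%. Wnt2+ cells with one numbered 0 of 543 and 1 of 689 after thinning. P4ha2, a subunit of the enzyme that hydroxylates collagen prolines, stood at 77.7 and 36.0 CPM. In all members the 5 genes ranked after it had log2 ratios of 0.63 to 0.86 in UMI counts and passed 2-fold in adjusted values alone. In UMI counts Dnajb1 passed it in the Dcn/Lum-positive kind (1.198) and S100a16 without the marked members (1.002).

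The 10 genes ranked toward the library labelled control were Upk3b, Col4a4, Fgfbp1, Fxyd3, Sfrp2, Bcam, Clu, Msln, Tnnt2 and C2. Upk3b and Msln are mesothelial markers and stood at 15.6 and 217 CPM and at 21.0 and 117 CPM. Without the members bearing cartilage or mesothelial markers, a choice made on both genes, Upk3b had 0 UMIs in either library and Msln 8 and 2. Bcam and Clu, on which that choice did not rest, went from log2 ratios of -2.52 and -2.46 to 0.28 (-0.99 to 1.87) and 0.45 (-0.70 to 1.90). The others were then also under 50 CPM. Sfrp2 stood at 17.8 and 38.5 CPM, a log2 ratio of -1.09 (-1.62 to -0.59). Col4a4 held 4 and 5 UMIs, Tnnt2 7 and 5, Fgfbp1 2 and 2 and Fxyd3 6 and 2, and of these 4 low counts the interval of the log2 ratio lay under 0 for Col4a4 (-4.57 to -0.02). C2 held 35 and 19 UMIs, a log2 ratio of -0.99 (-1.88 to -0.15).

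**Figure D5:**
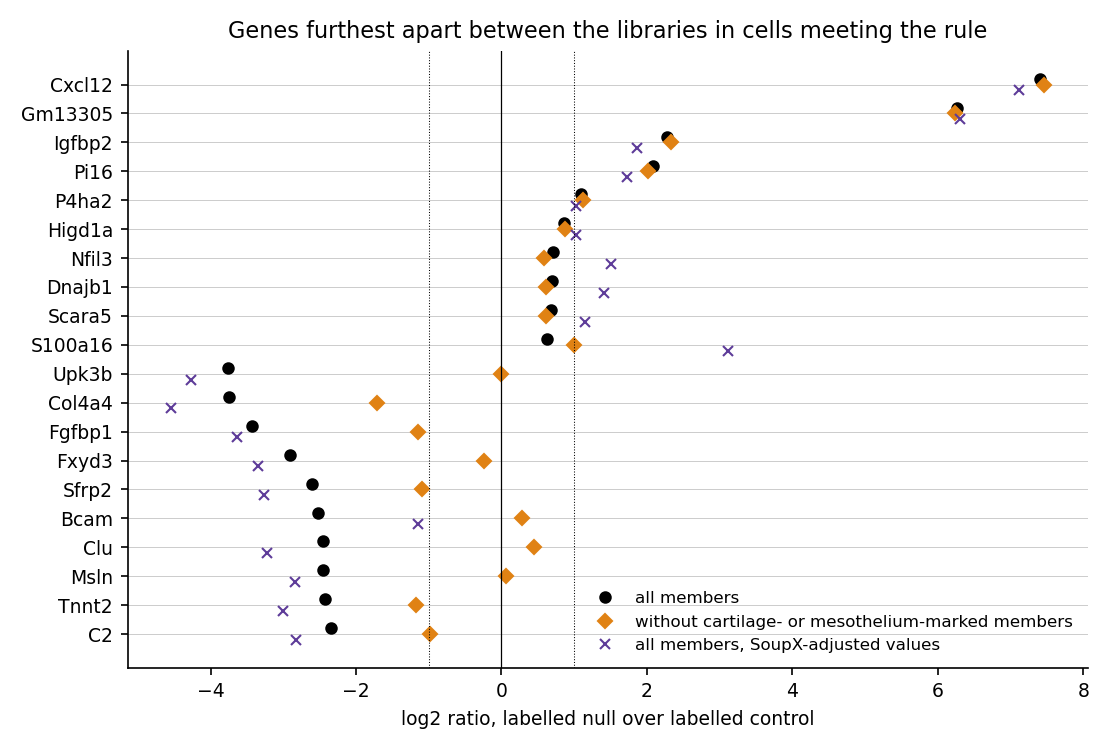
Log2 ratio of the library labelled null over the library labelled control for the 20 genes named, in all members (black circles), without members bearing cartilage or mesothelial markers (orange diamonds) and from SoupX-adjusted values of all members (purple crosses). Dotted lines mark 2-fold. Cxcl12, Gm13305, Igfbp2, Pi16 and P4ha2 stay past 2-fold in each. On the lower side so do Sfrp2, Col4a4, Fgfbp1 and Tnnt2, though they are under 50 CPM without the marked members. Without the marked members Bcam and Clu move to 0.28 and 0.45 while Upk3b, with no UMI left, is drawn at 0.

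The gene lists were also compared between the libraries. They were not recomputed with no lower mitochondrial limit or with the rule on UMI counts. Of 15 adventitial genes outside the rule, 1, Pi16, was at least 2-fold higher in the library labelled null and 0 lower, with a median log2 ratio of 0.47 beside -0.05 over all genes compared. Collagens outside the rule gave 0 of 13 in either direction, with a median of -0.02. All 5 mesothelial genes compared were lower, with a median of -2.23, and 0 reached the minimum level without the marked members, a choice that rests on these genes. Of all genes compared 1.43% were lower, or 1.03% without the marked members. Of 9 Wnt, hedgehog and FGF genes 3 were lower, Sfrp2, Rspo1 and Fgfr4, or 1 of 8 without the marked members. Among 6 alveolar genes 1 was lower, Inmt, among 8 signals to vessels and axons 1, Slit2, and among 6 chemokine and complement genes 1, C3. These counts without the marked members were 1 of 7, 1 of 8 and 0 of 4. Elastic fibre genes gave 1 of 19 lower, Efemp1, at 26.5 and 56.3 CPM, or at 22.9 and 19.3 CPM without the marked members, on the other side and under the minimum level. Genes of dissociation stress gave 0 of 12 past 2-fold, glucocorticoid-responsive genes 0 of 7, and hypoxia and glycolysis genes 0 of 9. Of 5 cell cycle genes 2 were lower, Mki67 and Cenpf, and 4 of 5 without the marked members, where 1.43% and 1.03% of all genes compared were lower. Members with at least 3 UMIs of Mki67 and Top2a numbered 20 (3.73%, 2.29 to 5.70%) and 7 (4.24%, 1.72 to 8.55%), with intervals that overlap. Xist stood at 949 and 0 CPM and the Y-linked Ddx3y at 37.0 and 67.9 CPM in members, so the mix of sexes differed between the libraries and cannot be told apart from the genotype label.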

How the data were processed

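Whole lungs at embryonic day 18.5 were dissociated and profiled with 10x 3′ chemistry in 2 libraries. The authors made UMI counts with Cell Ranger (3.1.0 in the file headers, mm10) and deposited them as raw counts. They also deposited expected counts, which are the UMI counts lowered by SoupX for free RNA and need not be whole. The members and gene lists were chosen with earlier results of these data known.

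Cells with at least 700 genes and 0.5 to 10% mitochondrial values were kept, and the rule was applied, both on the adjusted values. Gm42418 was left out. The libraries held 103857395 (labelled null) and 85648519 UMIs (labelled control). Of the barcodes, 140 occurred in both libraries, 0 of them among members. Scrublet marked 5.29% and 5.49% of kept cells and 14 and 3 members, which stayed in.

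Levels are summed UMI counts in CPM with exact Poisson intervals, and shares have Clopper-Pearson intervals. Log2 ratios add 0.5 CPM, with exact conditional binomial intervals. With 1 library per label no p-value was computed, and genes are called apart at 2-fold, from 50 CPM in a group compared, without mitochondrial, ribosomal protein and haemoglobin genes. Cells were thinned to 4000 UMIs for shares of cells with a UMI, which left out 13 and 8 members. Cartilage-marked members held at least 5 and mesothelium-marked at least 3 UMIs of those markers. Named genes are those of the rule and lists, the 15 highest, the 10 furthest apart each way between the libraries (past 2-fold in adjusted values, without sex-linked genes) and from Wnt2+ cells, and the 10 most variable. Genes of the Dcn/Lum split and of Igfbp2-bearing cells were named after their values were seen. The ratios were checked on simulated counts. Markers of 1 further cell type are not reported here. Positions are from GENCODE M21. Python 3.11.15, scipy 1.17.1 and scanpy 1.11.5 were used.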

Additional observations from a re-analysis of the deposited data

How the results depend on the processing

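Under the other settings that were planned, 67 recomputed shares, ratios and counts of the main results held and 31 moved. A value held if it stayed within the counting interval of the value reported, or within 1.5 times for a count of genes. For Cxcl12 over Wnt2+ cells in the library labelled control, from 0 against 1 UMI, that interval has no lower bound and reaches 7.24. The interval of the Cxcl12 ratio between the libraries starts at 5.06 and has no upper bound. The former ratio could hardly move and the latter could move downward only, which raises the number that held. The cause of a move was not tested beyond what the alternative itself sets. The marked members left out and the Dcn/Lum split are alternatives chosen after seeing the data. They were counted apart, and under them 18 values of the main results held and 12 moved. Log2 ratios between the libraries of the genes ranked furthest apart were also counted apart. Of these ratios, 30 held and 10 moved under planned settings. Under the alternatives chosen later, 23 held, 30 moved and 7 changed sign.

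The share of members in the library labelled null was 7.08% with adjusted values rounded before the rule, 3.14% with a Dcn, Lum and Col14a1 sum of at least 8 and 4.57% with the rule on thinned UMI counts. In the library labelled control it was 3.78% with the rule on UMI counts, 2.98% with rounding, 3.05% with no lower mitochondrial limit and 0.832% with a sum of at least 8. The Dcn/Lum-positive kind alone made up 2.83% and 0.765%, and the Col14a1-only kind 3.08% and 1.45%.

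With a pseudocount of 5 CPM the Cxcl12 log2 ratio between the libraries was 4.15, which depends on the constant because the library labelled control counted 0, and the ratios over Wnt2+ cells were 6.29 and 4.23 for Igfbp2 and 2.56 for Cxcl12. The Igfbp2 log2 ratio between the libraries was 1.87 with adjusted levels, 1.61 with the rule on UMI counts, 1.48 with no lower mitochondrial limit, 1.83 with a sum of at least 8, 1.91 in the Dcn/Lum-positive kind and 2.58 in the Col14a1-only kind. Over Wnt2+ cells Igfbp2 had 5.14 with the rule on thinned counts and 7.61 in the Dcn/Lum-positive kind of the library labelled null, and 5.94 with the rule on UMI counts and 4.95 with rounding in the library labelled control. Cxcl12 over Wnt2+ cells in the library labelled null had 4.75 with adjusted levels, 2.18 with the rule on UMI counts, 2.35 with rounding, 3.59 in the Dcn/Lum-positive and 1.99 in the Col14a1-only kind.

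The number of genes at least 2-fold apart between the libraries was 52, and 175 with adjusted levels, 157 and 5 with minimum levels of 20 and 200 CPM, 19 with the rule on UMI counts, 24 with no lower mitochondrial limit, 134 with a sum of at least 8 and 120 in the Dcn/Lum-positive kind. Between members and Wnt2+ cells it was 299, and 492 with adjusted levels, 581 and 94 with the other minimum levels, 476 with a sum of at least 8, 508 in the Dcn/Lum-positive and 199 in the Col14a1-only kind. Between the libraries Col4a4 (1.32), Clu (4.40) and Tnnt2 (1.99) had positive log2 ratios in the Col14a1-only kind over a count of 0 in the library labelled control, so that the values rest on the constant added, and of these the interval stays above 0 for Clu alone. Bcam had 0.38 there (-1.23 to 2.47). Without the marked members Bcam (0.28), Clu (0.45) and Msln (0.06) lay just above 0, with intervals on both sides of it. No paired analysis was possible because each group has 1 library.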

Other observations

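Cells with at least 3 Igfbp2 UMIs were also found outside the rule. Among cells that met the collagen, lineage, Acta2 and Wnt2 limits but had a Dcn, Lum and Col14a1 sum under 4, they numbered 120 of 1622 (7.398%, 6.17 to 8.78%) in the library labelled null and 17 of 1595 (1.07%, 0.622 to 1.70%) in the library labelled control. With Wnt2 above 0 they numbered 6 of 1083 (0.554%, 0.204 to 1.202%) and 1 of 1197 (0.0835%, 0.00212 to 0.465%). Over all cells that met the collagen and lineage limits they numbered 252 of 4623 (5.45%, 4.81 to 6.15%) and 31 of 3585 (0.865%, 0.588 to 1.23%), and over all kept cells 417 of 9067 (4.60%, 4.18 to 5.05%) and 112 of 7448 (1.504%, 1.24 to 1.81%).

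Ackr3, which encodes a scavenging receptor of CXCL12, stood in Col14a1-only members with and without Igfbp2 at 34.8 against 7.65 CPM in the library labelled null and 61.9 against 7.37 CPM in the library labelled control. The members with Igfbp2 in the library labelled control were 8 cells. Of 8 listed genes near Cxcl12 on chromosome 6, 7 were found by name among the genes measured. Of these Hnrnpf alone reached 50 CPM in members, at 252 and 207 CPM. Tmsb4x had a log2 ratio between the libraries of 0.12 in UMI counts and 2.18 in adjusted values of the same members.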
